A study of Mus musculus with 4 samples.

Results

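Ring1b and trimethylated lysine 20 of histone H4 (H4K20me3) were compared read by read along the autosomes of mouse embryonic stem cells. The comparison used 2 of the 4 chromatin immunoprecipitation libraries of the study, those whose antibody label is Ring1b and H4K20me3. The other 2 libraries, against the DNA-binding repressor REST and against MCAF1, a partner of the histone methyltransferase SETDB1, served as readouts outside the comparison. All 4 came from V6.5 cells, an embryonic stem cell line of mixed C57BL/6-129 background, untreated as far as the labels say, grown on feeder fibroblasts and then moved off them for 2 passages (1 for REST). The H4K20me3 antibody was from Abcam, per the labels.

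Ring1b is the catalytic subunit of Polycomb repressive complex 1, which ubiquitinates histone H2A. In embryonic stem cells it is known to cover the CpG-rich promoters of developmental regulators, a form of repression called facultative because it can be lifted when the cells differentiate. H4K20me3 is laid down by SUV420H enzymes that are recruited through HP1 to chromatin carrying trimethylated lysine 9 of histone H3. It is known from pericentric repeats, telomeres and retrotransposons, the constitutive form of repression. Both were read here only where a sequencing read could be placed, and the most repeated sequence is not in these values.

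The 2 libraries held 3296354 (Ring1b) and 7947440 (H4K20me3) reads with 1 reported location. After 1 read was kept per position and strand, 3023138 and 7655438 autosomal reads remained, and H4K20me3 was thinned at random to the Ring1b number, so that a ratio of 1 means equal parts of each library. There was 1 library per antibody, each from a flow cell of its own, with a gel slice of 150 to 300 bp for Ring1b and 150 to 350 bp for H4K20me3. Ring1b reads were aligned with a seed of 26 bases and H4K20me3 reads with one of 36 bases. Antibody, sequencing run, seed and replicate cannot be told apart, no difference had a replicate check, and no test between antibodies was made. Intervals in brackets are exact 95% intervals (Clopper-Pearson). They cover counting error only, since reads amplified over 18 cycles are not independent molecules.

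The split of called bins between the 2 sides changed with bin size. A bin was called for a side when the interval of its ratio lay wholly past 2-fold, which needs at least 10 reads. Bins with a read in any library held on average 1.38 reads of each thinned library at 1 kb, 12.8 at 10 kb and 127 at 100 kb. A call at 1 kb thus needs depth far above average, and the part of depth in the split was not tested. In 1 kb bins the Ring1b side took 6527 calls, 0.299% of the 2183993 bins with a read in any library, and the H4K20me3 side took 1248 calls, 0.0571%. In 10 kb bins the sides were nearly even, with 1574 calls for Ring1b (0.665% of 236591 bins) and 1457 for H4K20me3 (0.616%). In 100 kb bins Ring1b again took most calls, 357 (1.49% of 23896 bins) against 90 for H4K20me3 (0.377%). The Ring1b part of all calls was therefore 83.9% at 1 kb, 51.9% at 10 kb and 79.9% at 100 kb.

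**Figure D1:**
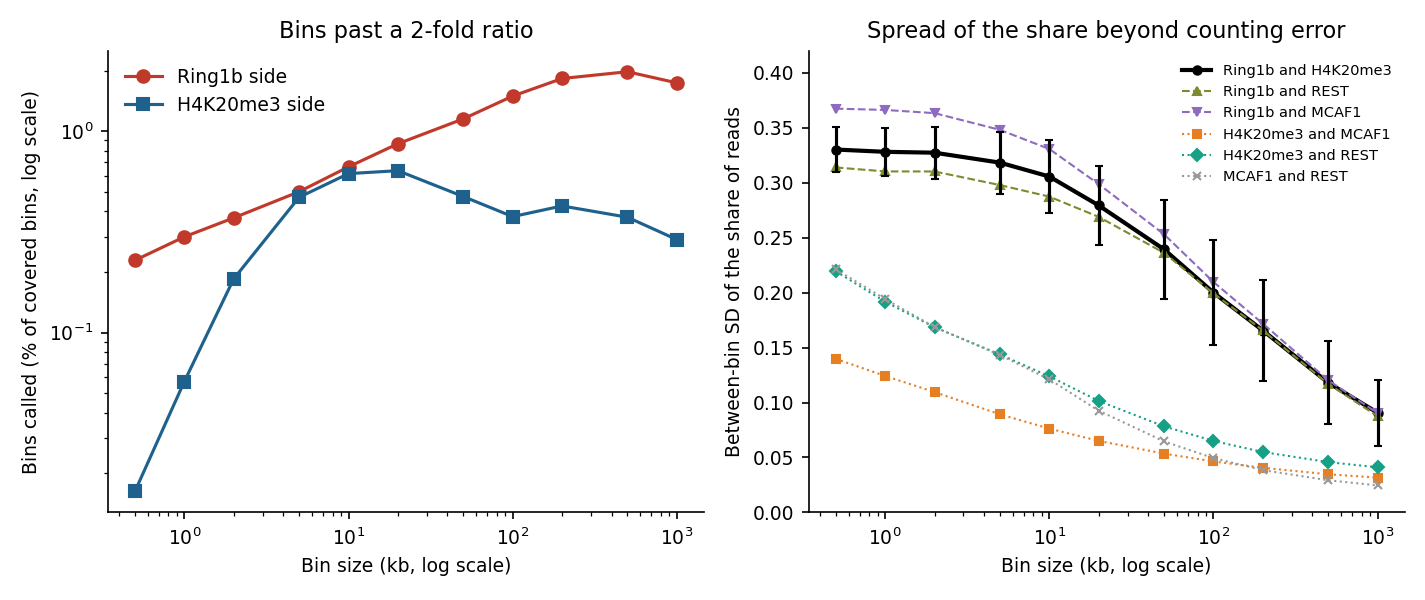
Left, the percent of covered bins called for Ring1b (circles) or H4K20me3 (squares) against bin size, both axes logarithmic. Right, the SD of the share of reads between bins beyond counting error for the 6 pairs of libraries, with error bars of 1 SD over 19 autosomes for Ring1b and H4K20me3. The 2 call curves come closest at 5 to 10 kb, and the 3 pairs that hold Ring1b lie above the others at each size.

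This split rests on the fold and on the choice of what counts as equal. With calls past 1.5-fold the Ring1b part was 74.3%, 40.02% and 47.4% at 1, 10 and 100 kb, so the majority turned at 10 and 100 kb. Past 3-fold it was 91.0%, 69.6% and 94.4%. Scaling the libraries on the 10 kb bins between the lower and upper quartile of REST and MCAF1 read number moves every log2 ratio by 0.21 towards Ring1b, because those bins had a ratio of 0.863. The Ring1b part of the calls is then 71.9% at 10 kb and 91.1% at 100 kb. On that scale the H4K20me3 side keeps fewer calls, 812 at 1 kb, 828 at 10 kb and 43 at 100 kb. Ratios between 0.863 and 1 in the text below lie above 1 on that scale.

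A larger part of Ring1b reads than of H4K20me3 reads lay in bins called for their own side. Being rich in their own library is part of how these bins were called, so the shares are a description only. The 1574 Ring1b-side bins of 10 kb, 15.7 Mb in all, held 13.2% of all Ring1b reads and 1.74% of H4K20me3 reads. The 1457 H4K20me3-side bins, 14.6 Mb, held 1.71% of H4K20me3 reads and 0.255% of Ring1b reads. At 1 kb the Ring1b-side bins held 13.0% of Ring1b reads and at 100 kb 10.9%. The matching parts of H4K20me3 in its own bins were 0.686% and 0.448%.

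The share of reads that are Ring1b varied between bins by more than counting error at each size. The SD between bins beyond counting error was 0.328 at 1 kb, 0.306 at 10 kb, 0.200 at 100 kb and 0.0906 at 1 Mb. Over the 19 autosomes this value had an SD of 0.0219, 0.0329, 0.0476 and 0.0298. Bins with many reads weigh most in it. Pairing Ring1b with REST gave 0.310 and with MCAF1 0.366 at 1 kb, against 0.124 for H4K20me3 with MCAF1, 0.192 for H4K20me3 with REST and 0.194 for MCAF1 with REST. These pairs share libraries, so they are given side by side without a test. At 100 kb the 3 Ring1b pairs were 0.199 to 0.210 and the other 3 were 0.0464 to 0.0651.

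In reads that had not made the call, folds were lower than in the calling reads, and more so on the H4K20me3 side. Reads of both libraries were divided at random into equal parts, bins were called in 1 part and counted in the other. Both parts come from the same libraries, so this bears on counting error only and does not stand in for a replicate. The calling part gave 4271, 1227 and 315 Ring1b-side bins at 1, 10 and 100 kb, against 6527, 1574 and 357 with all thinned reads. For H4K20me3 it gave 242, 766 and 52, against 1248, 1457 and 90. The values below are of these fewer bins. Ring1b-side bins had 10.6 times as many Ring1b as H4K20me3 reads at 1 kb (10.5 to 10.8), 7.88 times at 10 kb (7.77 to 7.98) and 5.05 times at 100 kb (4.99 to 5.11). H4K20me3-side bins had 8.50 times as many H4K20me3 as Ring1b reads at 1 kb (7.56 to 9.57), 3.75 times at 10 kb (3.62 to 3.88) and 3.14 times at 100 kb (2.96 to 3.34). In the reads that made the call, the H4K20me3 folds had been 28.9, 9.75 and 4.28, while the Ring1b folds had been 13.6, 8.52 and 5.08. The held-out ratio lay on the called side in 99.5%, 98.6% and 100% of Ring1b-side bins and in 97.9%, 92.4% and 98.1% of H4K20me3-side bins.

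The ratio was alike over about 10 kb. The covariance of the Ring1b share between 1 kb bins fell to 49.2% of its value at 1 kb distance when the bins were 10 kb apart, to 14.9% at 50 kb and to 6.70% at 100 kb. Most of this change with distance was seen in Ring1b reads alone. The covariance used all covered bins, and read pairs were counted without the top 0.1% of them by REST and MCAF1 reads. Pairs of Ring1b reads 1 kb apart were 8.97 times as frequent as an even spread over the bins kept would give. At 100 kb they were 1.44 times as frequent. Pairs of H4K20me3 reads were 1.74 times as frequent at 1 kb and still 1.37 times at 100 kb. Pairs of 1 Ring1b and 1 H4K20me3 read were 2.04 times as frequent at 1 kb, above the value for H4K20me3 alone, and 1.33 times at 100 kb. From 200 kb on, the Ring1b value (1.29) was no higher than that of H4K20me3 (1.34).

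**Figure D2:**
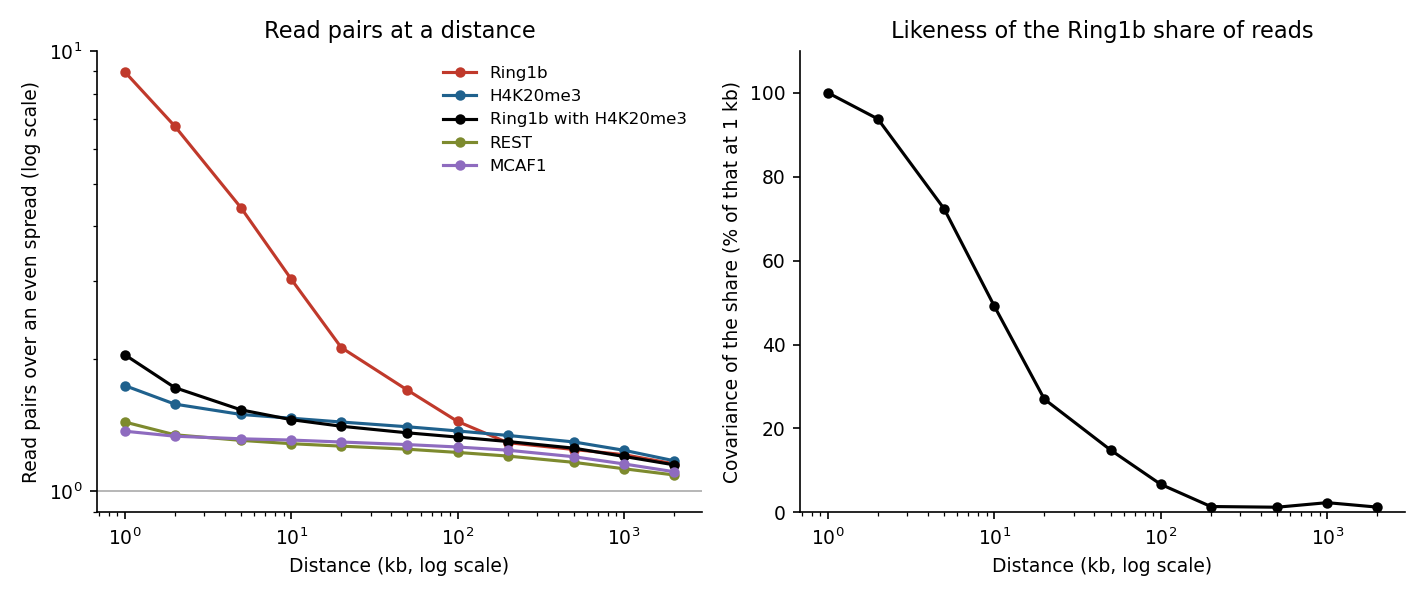
Left, pairs of reads at a given distance relative to an even spread (both axes logarithmic) for each library and for Ring1b with H4K20me3. Right, the covariance of the Ring1b share of reads as a percent of that at 1 kb. The left panel leaves out the top 0.1% of bins by REST and MCAF1 reads, and the right panel uses all covered bins. Ring1b falls from 8.97 at 1 kb to 1.44 at 100 kb while H4K20me3 falls from 1.74 to 1.37.

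Most runs of called bins were a single bin on both sides, and long runs were more frequent for Ring1b. At 1 kb the Ring1b calls formed 3090 runs of adjacent bins, of which 68.2% were a single bin, 93 were at least 10 kb long and the longest was 56 kb. The H4K20me3 calls formed 1041 runs, of which 87.5% were a single bin, 2 reached 10 kb and the longest was 12 kb. At 10 kb 78.8% of Ring1b runs and 92.8% of H4K20me3 runs were single bins, and the longest were 140 kb and 100 kb. Of the Ring1b calls at 1 kb, 51.6% lay within a 100 kb bin that was also called, against 8.73% of H4K20me3 calls. Conversely, 99.4% of the 357 Ring1b-side bins of 100 kb held a 1 kb call of their side, against 35.6% of the 90 H4K20me3-side bins. Over all covered 100 kb bins, 10.4% held a Ring1b-side 1 kb call and 3.65% an H4K20me3-side one, so the 2 sides start from unequal numbers of calls. Depth was unequal as well. Ring1b-side bins of 100 kb held a median of 768 Ring1b reads, and H4K20me3-side bins a median of 116.5 H4K20me3 reads. A 1 kb call needs at least 10 reads, and the part of depth in this nesting was not tested.

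Inside the called 100 kb bins the reads lay unequally spread in different degrees. The chance that 2 reads of a bin fall in the same 1 kb was, on average, 10.8 times that of an even spread for Ring1b reads in Ring1b-side bins, and 2.52 times for Ring1b reads in all covered bins. For H4K20me3 reads in H4K20me3-side bins it was 3.87 times, and 1.82 times in all covered bins. The called bins were chosen by these same reads, so the values in them are a description only. The sides also met within larger bins. Of the 2491 bins of 100 kb that held a Ring1b-side 1 kb call and the 873 that held an H4K20me3-side one, 149 held both. At 10 kb, 3178 bins (1.34%) held the first kind, 992 (0.419%) the second and 15 both.

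Next to a Ring1b-side run the ratio fell within a few kilobases. In the called 1 kb bins Ring1b stood at 43.4 times its mean over covered bins. In uncalled bins 1 kb away it was 7.42 times, at 2 kb 2.996 times and at 6 to 10 kb 1.57 times. The ratio to H4K20me3 in these bins was 2.30 (2.27 to 2.34) at 1 kb, 1.05 (1.04 to 1.07) at 6 to 10 kb and 0.885 (0.883 to 0.888) at 101 to 200 kb. H4K20me3 around H4K20me3-side bins fell more slowly. It stood at 10.6 times its mean in the called bins, at 4.34 times 1 kb away, at 2.12 times at 6 to 10 kb and at 1.66 times at 21 to 50 kb. The ratio was 0.324 (0.312 to 0.336) at 1 kb, 0.637 (0.625 to 0.649) at 6 to 10 kb and 0.833 (0.829 to 0.837) at 101 to 200 kb. Ring1b was at 0.578 times its mean in the called H4K20me3-side bins, and at 1.37 times already 1 kb outside them. Being low in Ring1b is part of how those bins were called, and being uncalled is part of how the neighbours were chosen, so the step at the border is a description only.

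**Figure D3:**
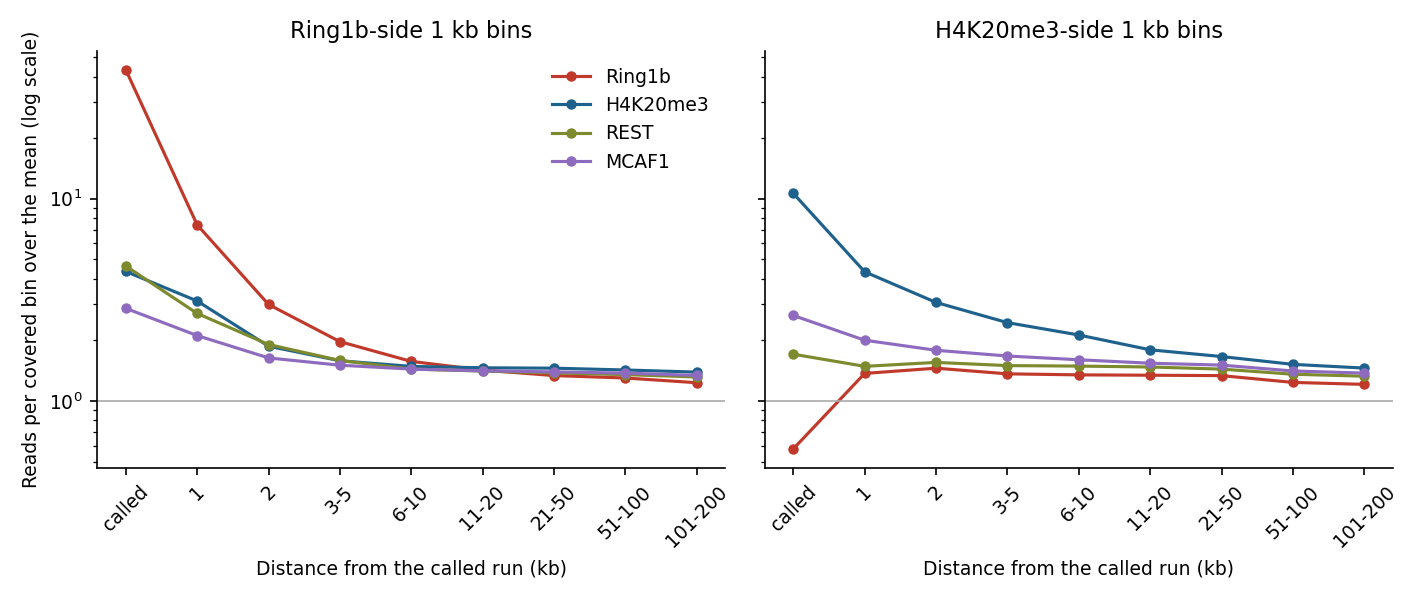
Reads per covered 1 kb bin relative to each library's mean (log scale) in called bins and in uncalled bins at increasing distance, for the Ring1b side (left) and the H4K20me3 side (right). Ring1b drops from 43.4 to 1.57 times its mean within 6 to 10 kb, and H4K20me3 from 10.6 to 2.12 times.

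Coordinates below are of the mm8 assembly, counted from 1, with the chromosome's number after chr. The gene tables used here belong to another assembly, so no position was assigned to a gene, promoter or repeat, and no sequence is printed for any bin. The antibody labels could for the same reason not be checked against marker genes.

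The 2 longest Ring1b-side runs of 10 kb bins were 140 kb each. The first, chr6:52070001-52210000, held 8836 Ring1b and 478 H4K20me3 reads, a ratio of 18.5 (16.9 to 20.3). Ring1b there was at 49.4 times its mean, while H4K20me3 was at 2.67, REST at 2.70 and MCAF1 at 1.87 times theirs. The second, chr15:102730001-102870000, held 7715 and 470 reads, a ratio of 16.4 (15.0 to 18.1). The third, 130 kb at chr11:96060001-96190000, held 7273 and 467 reads, a ratio of 15.6 (14.2 to 17.1). The next run, 120 kb at chr2:74450001-74570000, was chosen after its values were seen and held 7272 and 400 reads, a ratio of 18.2 (16.4 to 20.2). In each of the 4 runs H4K20me3 was at 2.61 to 2.81 times its mean, so these runs were not poor in H4K20me3 reads. As background, Hox gene clusters, the best known Polycomb targets, lie on mouse chromosomes 2, 6, 11 and 15. Whether the runs hold them was not looked up on this assembly.

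Ring1b was uneven inside the run on chromosome 6. Its 14 bins held between 36 and 1120 Ring1b reads, with a dip to 143 and 279 between bins of 902 and 878. H4K20me3 held 8 to 51 reads in the same bins. At 30 kb past the run's end a single bin held 827 Ring1b reads against 49 of H4K20me3, with 23 to 73 Ring1b reads in the bins between.

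**Figure D4:**
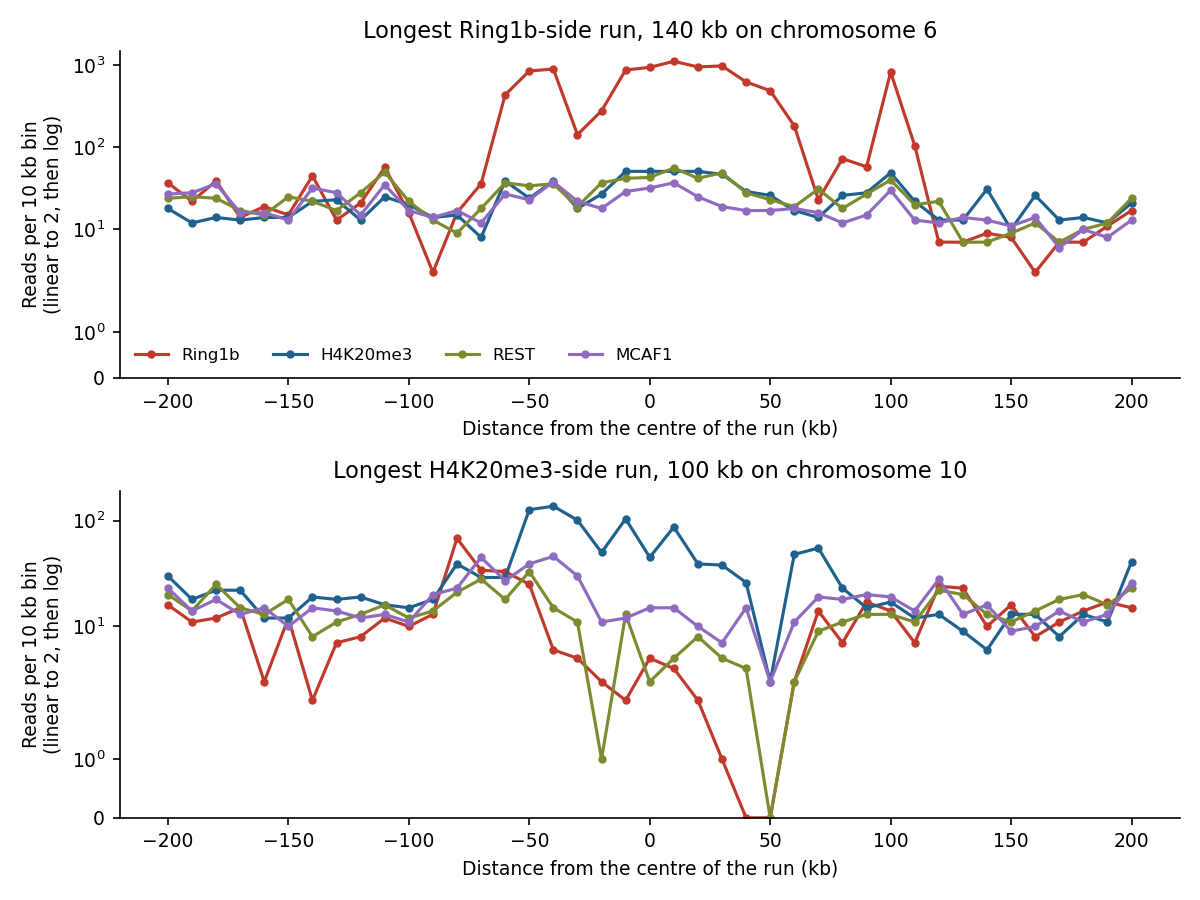
Reads of the 4 thinned libraries in 10 kb bins around the longest Ring1b-side run (top) and the longest H4K20me3-side run (bottom), by distance from the centre of the run, on an axis that is linear to 2 and logarithmic above. Ring1b reaches 1120 reads in the upper run, and H4K20me3 reaches 137 in the lower run, where Ring1b falls to 0.

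Single bins gave the highest ratios. At 1 kb, chr15:35239001-35240000 held 183 Ring1b reads and 0 thinned H4K20me3 reads, with a lower interval bound of the ratio of 49.1. Before thinning, H4K20me3 had 3 reads in it, 0.856 times its mean. The next 3 by rank were chr14:47589001-47590000 (149 Ring1b reads), chr17:85533001-85534000 (145) and chr13:55839001-55840000 (143), also with 0 thinned H4K20me3 reads. Before thinning these 3 held 5, 6 and 10 H4K20me3 reads, and the last was at 2.85 times the H4K20me3 mean. The fifth, chr2:74482001-74483000, lies in the 120 kb run and held 206 reads against 1. At 10 kb the 5 highest held 991 to 1420 Ring1b reads and 27 to 41 H4K20me3 reads. Of these, chr12:9600001-9610000 had 1083 against 29, a ratio of 37.3 (25.9 to 56.0), and chr2:115750001-115760000 had 1420 against 41, a ratio of 34.6 (25.4 to 48.5). At 100 kb, 4 of the 5 highest overlapped the 4 runs, and the fifth, chr2:115700001-115800000, had 2118 against 138 reads, a ratio of 15.3 (12.9 to 18.4).

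The longest H4K20me3-side run was 100 kb at chr10:82790001-82890000. It held 754 H4K20me3 and 53 Ring1b reads, 14.2 times as many (10.8 to 19.2). H4K20me3 was at 5.90 times its mean, MCAF1 at 1.57, REST at 0.767 and Ring1b at 0.415. Along the run Ring1b went from 25 reads in the first bin to 0 in the last, and H4K20me3 from 127 to 26. A 10 kb bin just past the end held 0 Ring1b, 0 REST, 3 MCAF1 and 3 H4K20me3 reads, so few reads could be placed there at all. Reads with 2 locations, which did not make the calls, numbered 310 for H4K20me3, 137 for MCAF1, 27 for REST and 15 for Ring1b in the run.

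The second H4K20me3-side run was 60 kb at chr4:154970001-155030000, with 704 against 85 reads, 8.28 times as many (6.61 to 10.5). Here Ring1b was near its mean (1.11 times) and H4K20me3 was at 9.18 times. The third was 30 kb at chr3:88740001-88770000, tied in length with others, with 89 against 8 reads and H4K20me3 at 2.32 times its mean. Among single 10 kb bins the firmest ratio was at chr17:6590001-6600000, with 346 H4K20me3 reads against 13, 26.6 times as many (15.4 to 50.5). The next, chr10:82830001-82840000, lies in the 100 kb run and held 104 against 2, 52.0 times (14.0 to 435). The one after it, chr9:121170001-121180000, held 153 against 5, 30.6 times (12.8 to 95.6). In the bin on chromosome 17 the best 1 kb bin, chr17:6592001-6593000, held 47 reads against 0, with a lower interval bound of 12.2, and 120 H4K20me3 reads before thinning. MCAF1 was at 7.22 and REST at 4.33 times its mean in that bin.

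At 100 kb the H4K20me3 side was of another kind. The first 3 bins overlapped places already named: chr10:82800001-82900000 (630 against 28 reads), chr17:6500001-6600000 (537 against 47) and chr4:155000001-155100000 (536 against 60). In the other two, both on chromosome 12, the outside libraries were low as well, at 0.0711 to 0.308 times their mean. In chr12:20400001-20500000 H4K20me3 had 153 reads, 1.21 times its mean, and Ring1b 13, 0.103 times. In chr12:18200001-18300000 H4K20me3 had 33 reads, 0.261 times its mean, and Ring1b 2. Over all 90 bins called for H4K20me3 at 100 kb, the median H4K20me3 level was 0.902 times the mean and 54.4% of the bins were below it. At 10 kb only 6.52% of H4K20me3-side bins were below the mean. Of the same 90 bins, 98.9% were below the Ring1b mean.

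Many bins were high in both and not called. At 3 times the mean, 8970 bins of 10 kb were high in Ring1b and 7511 in H4K20me3, and 3818 were high in both, 42.6% of the first and 50.8% of the second. Over all covered 10 kb bins, 3.79% were high in Ring1b and 3.17% in H4K20me3. The part of the Ring1b-high bins that was also high in H4K20me3 was 67.0% at 2 times and 10.9% at 5 times the mean, where 11.96% and 0.279% of all bins were high in H4K20me3. Of these 3818, 544 were called for Ring1b and 6 for H4K20me3, and 3268 for neither. The REST and MCAF1 libraries together were at a median of 2.86 times their mean in the bins high in both, 2.15 in those high in Ring1b only and 2.27 in those high in H4K20me3 only. The part of a signal shared by all libraries in this overlap was not tested. The even bins with the highest counts were chr11:3070001-3080000 (249 Ring1b and 294 H4K20me3 reads), chr17:6210001-6220000 (142 and 157) and chr4:3010001-3020000 (159 and 128). In the first of them REST was at 21.5 and MCAF1 at 27.5 times its mean, and in the other two REST was at 17.4 and 11.3 times. The bin chr1:192670001-192680000 was picked after the values were seen, because the outside libraries together were below 2 times their mean. Ring1b had 80 reads there (6.26 times its mean) and H4K20me3 62 (4.85 times). REST was at 1.88 and MCAF1 at 2.03 times, so both were still above average.

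REST and MCAF1 reads, which did not enter the calls, were more frequent than average on the Ring1b side. In Ring1b-side bins of 1 kb REST was at 4.64 and MCAF1 at 2.87 times its mean, and H4K20me3 itself at 4.36. In 10 kb bins the values were 2.57, 1.83 and 2.70, and in 100 kb bins 1.4995, 1.31 and 1.52. The Ring1b side was thus not a set of bins without H4K20me3 reads. Only 664 of its 6527 bins at 1 kb had none after thinning, and 65.1% were at or above 2 times the H4K20me3 mean. Whether this is H4K20me3 or a level common to all libraries was not tested.

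On the H4K20me3 side the outside libraries stood in the other order than on the Ring1b side. In 1 kb bins MCAF1 was at 2.64 and REST at 1.70 times its mean, with H4K20me3 at 10.6. In 10 kb bins MCAF1 was at 1.17, REST at 0.878, H4K20me3 at 2.61 and Ring1b at 0.415. In 100 kb bins the 4 values were 0.626, 0.485, 1.15 and 0.324. MCAF1 was above REST at each size, whereas on the Ring1b side REST was above MCAF1 at each size. MCAF1 and H4K20me3 reads were aligned with a 36-base seed, REST and Ring1b reads with a 26-base one, and the part of the seed in this order was not tested.

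Reads with 2 reported locations, a second readout outside the calls, followed the antibody on each side. In H4K20me3-side bins of 100 kb they were at 5.61 times their mean for H4K20me3, 3.88 for MCAF1, 1.76 for REST and 1.66 for Ring1b. At 10 kb the values were 4.31, 2.38, 1.29 and 1.15. The 2 libraries with the longer seed were again the higher ones. On the Ring1b side the Ring1b reads with 2 locations were at 14.8 times their mean at 1 kb, 7.83 at 10 kb and 3.43 at 100 kb, and those of H4K20me3 at 2.59, 1.76 and 1.12. For MCAF1 they were at 2.73, 2.11 and 1.29 times on that side, below the H4K20me3 side at each size. For REST they were at 4.06, 2.77 and 1.62 times, against 2.58, 1.29 and 1.76 on the H4K20me3 side. The H4K20me3 and MCAF1 means on the Ring1b side rested on a part of the bins. At 1 kb 6.31% of these bins held such an H4K20me3 read, against 10.6% of covered bins, and at 10 kb 38.8% against 56.3%. For MCAF1 the values were 6.57% against 14.3% and 47.3% against 67.7%. At 1 kb Ring1b had 54.2% against 11.5% and REST 18.6% against 14.3%.

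By place, H4K20me3-side calls at 100 kb lay where reads with 2 locations were many and reads with 1 location few. Bins were ranked by REST and MCAF1 reads, which do not enter the ratio. The seed was 26 bases for Ring1b and 36 bases for H4K20me3, and its part in these results by place was not tested. The decile with most reads at 2 locations held 55 of the 90 H4K20me3-side bins (2.30% of its bins, against 0.377% overall) and 18 of the 357 Ring1b-side bins (0.753%, against 1.49%), with a ratio of 0.903 (0.899 to 0.908). The decile with fewest reads at 1 location held 41 of the 90 (1.72%) and 1 Ring1b-side bin, with a ratio of 0.849 (0.840 to 0.858). The decile with most reads at 1 location held 65 Ring1b-side bins and 0 H4K20me3-side bins, with a ratio of 1.03 (1.03 to 1.04). That last ratio was 0.994 (0.9902 to 0.9975) without bins in which MCAF1 and REST themselves part. At 10 kb the decile with most reads at 1 location had a ratio of 1.31 (1.31 to 1.32) and 794 of the 1574 Ring1b-side calls. H4K20me3-side calls were spread over all deciles of this ranking (129 to 169 in each). Ranked by reads at 2 locations, the last 10 kb decile held 438 H4K20me3-side calls (1.85% of its bins) and the first 74 (0.313%). For Ring1b these deciles held 101 (0.427%) and 208 (0.879%).

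**Figure D5:**
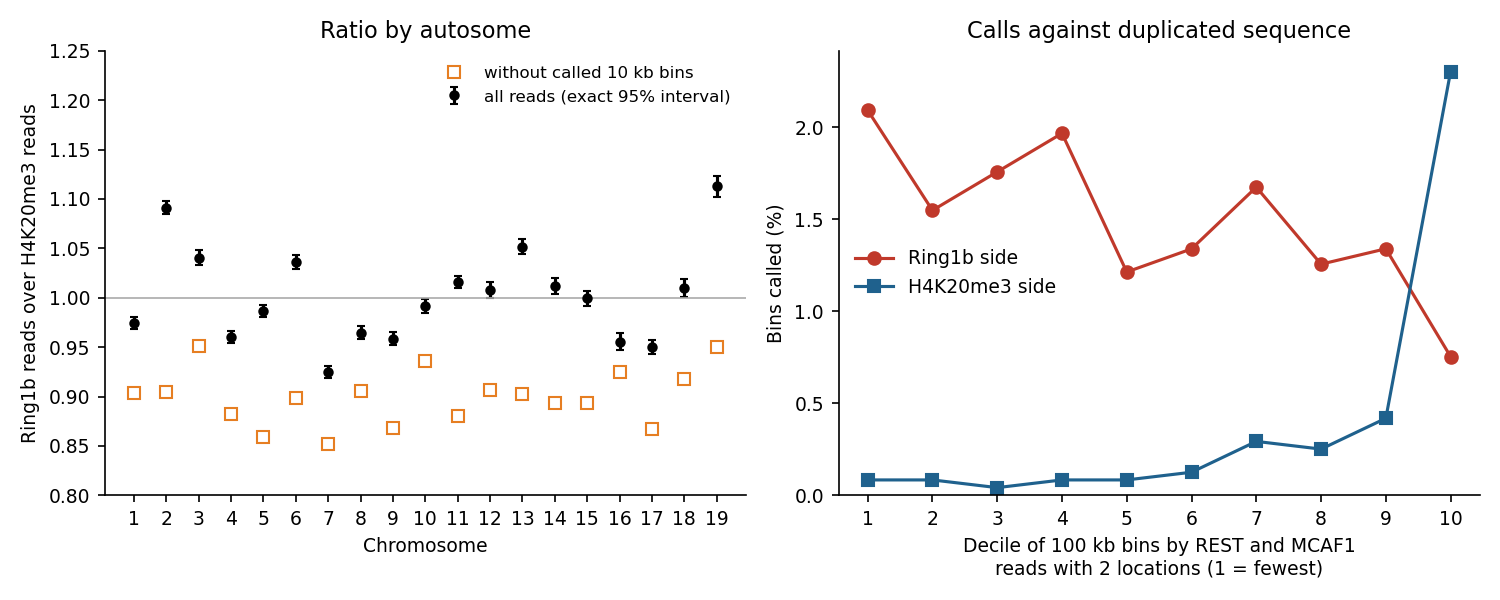
Left, Ring1b reads over H4K20me3 reads on each autosome with exact 95% intervals (circles) and without called 10 kb bins (squares). Right, the percent of 100 kb bins called for each side in deciles ranked by REST and MCAF1 reads with 2 locations. H4K20me3-side calls reach 2.30% in the last decile, and the squares all lie between 0.852 and 0.951.

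Chromosomes differed by less than the bins did. The ratio was highest on chromosomes 19 (1.11, 1.10 to 1.12) and 2 (1.09, 1.09 to 1.10) and lowest on chromosome 7 (0.925, 0.919 to 0.931). Without the called 10 kb bins, which hold more Ring1b than H4K20me3 reads, every autosome was below 1, between 0.852 on chromosome 7 and 0.951 on chromosome 3. On the scale of the bins between those quartiles these values were 0.987 to 1.10, and 17 of 19 autosomes were above 1. At 10 kb, calls for H4K20me3 were most frequent on chromosome 17 (91 bins, 1.01%) and least on chromosome 19 (22 bins, 0.379%). Calls for Ring1b were most frequent on chromosome 13 (105 bins, 0.913%) and least on chromosome 16 (33 bins, 0.348%). Chromosome 19 had no 100 kb bin called for H4K20me3 and 14 called for Ring1b.

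The ends of the autosomes showed no even pattern. Mouse autosomes have the centromere at the proximal end. In the first 2 Mb of assembled sequence the ratio was 0.897 (0.885 to 0.909) and 5 of 19 autosomes were above 1. It was 1.04 (1.03 to 1.05) with the libraries scaled on the bins between those quartiles, so its direction depends on that scale. In the last 2 Mb the ratio was 1.10 (1.09 to 1.11), with 8 of 19 autosomes above 1. Chromosome 15, whose end holds the 140 kb run, had 2.76 and chromosome 12 had 1.72. Without chromosome 15 the distal ratio was 0.947 (0.935 to 0.959).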

How the data were processed

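The authors deposited signed read positions, 1 per reported alignment, with no normalization. Alignment to mm8 used Bowtie, per the submitters' processing notes, version not given there. Per the file headers, the settings allowed 2 seed mismatches and a quality sum of 70, up to 2 locations, and a seed of 26 bases (Ring1b, REST) or 36 bases (H4K20me3, MCAF1). Such positions are other than counts or scores, so no count model was used. Reads with 1 location were kept once per position and strand, moved 75 bp towards 3′, thinned to 3023138 autosomal reads per library and counted in bins; repeated positions had been 6.33% of Ring1b and 2.06% of H4K20me3 reads. Which base of a minus-strand read its position marks was not settled. The call, the SD between bins (a moment estimate) and the covariance are described with the results. Only the call and the SD were tried on simulated data, and the covariance and the read pairs were not. The simulated SDs were smaller than the largest ones reported and did not vary with the depth of a bin. How well the estimate holds at the reported SDs was therefore not tested. Named bins are the 5 firmest per side and size, 1 per run, the 3 longest runs per side and the 3 even bins with the highest smaller count. The comparison, its measures and the named-bin rule were chosen with earlier results of these data known. Runs, spread within bins, flanks, deciles by 2-location reads and bins high in both were added after first values were seen. Alternatives changed scaling, thinning, fold, interval, shift, bins and reads kept. Python 3.11.15, numpy 2.4.6, scipy 1.17.1, pandas 2.3.3 and matplotlib 3.10.9 were used.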

Additional observations from a re-analysis of the deposited data

Results flagged for a closer look

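Chromosomes outside the autosomal comparison carried reads of both libraries, and chromosome X and the mitochondrial chromosome differed from the autosomes by more than counting error. On chromosome X the ratio of Ring1b to H4K20me3, relative to the autosomes, was 1.198 (1.19 to 1.21), from 59181 and 125044 distinct reads before thinning. On the mitochondrial chromosome it was 22.1 (20.02 to 24.4), from 3907 and 448 reads. Chromosome Y, with 992 and 2490 reads, was at 1.01 (0.936 to 1.09). All 3 values lack a replicate and an input library.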

How the results depend on the processing

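Of 197 alternative values, 160 stayed within the spread set for them, 34 moved and 3 changed direction. The number of called bins moved with the fold, the interval and the scale. At 1.5-fold there were 9811, 2911 and 597 Ring1b-side calls at 1, 10 and 100 kb and 3387, 4362 and 662 H4K20me3-side calls. At 3-fold there were 3919, 865 and 201 against 387, 377 and 12. With a 99% interval the H4K20me3 side had 379, 590 and 52 calls, and with scaling on the bins between the quartiles of outside reads 812, 828 and 43. Without thinning, the SD between bins, rescaled to equal read numbers, was 0.406 at 1 kb and 0.363 at 10 kb. The proximal 2 Mb ratio became 1.04 on the quartile scale, 0.918 with repeated positions, 0.927 with 2-location reads and 0.914 over 5 Mb. The distal ratio became 1.27 on that scale, 1.003 over 5 Mb and 0.947 without the highest autosome, chromosome 15. In the highest decile of 100 kb bins by outside reads the ratio became 1.04 with repeated positions, 1.197 on the quartile scale, 1.03 with 2-location reads, 1.05 with shifted bin borders, 1.03 without the top 0.1% of bins and 0.994 without bins where MCAF1 and REST part. In the lowest decile it became 0.840 with thinning over all nuclear chromosomes, 0.984 on the quartile scale, 0.829 with 2-location reads and 0.821 without those bins. Leaving out bins where MCAF1 and REST part, and leaving out the highest autosome, were chosen after the data were seen. Random thinning with 4 other seeds gave 75 to 92 H4K20me3-side calls at 100 kb. With a mean of 1.38 reads of each library per covered 1 kb bin, a bin of average depth could not be called at that size.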

Other observations

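Reads with 2 reported locations were also compared alone, 355265 of each library, to see how the sides part in sequence that occurs in more than 1 place. At 1 kb the balance was opposite to that of reads with 1 location. H4K20me3 took 574 calls at 1 kb and Ring1b 247, among 409122 bins with such reads. At 10 kb the numbers were 854 and 346 among 186093 bins, and at 100 kb 320 and 334 among 23953. Reads with 1 location were nearly even at 10 kb, with 1457 calls for H4K20me3 and 1574 for Ring1b. The seed was 26 bases for Ring1b and 36 bases for H4K20me3, and its part in this balance was not tested. Of the Ring1b calls, 145, 271 and 135 were also Ring1b calls with 1-location reads at 1, 10 and 100 kb. Of the H4K20me3 calls 31, 103 and 35 were H4K20me3 calls with 1-location reads. Over all bins covered by 1-location reads, 0.299%, 0.665% and 1.49% were Ring1b calls and 0.0571%, 0.616% and 0.377% H4K20me3 calls. Each such read is counted at both of its locations, so these bins are not independent of each other.

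Along the assembled length of the autosomes, divided into 10 equal parts from the centromere, the ratio was highest in part 4 (1.13, 1.12 to 1.14) and lowest in part 10 (0.928, 0.924 to 0.932) and part 9 (0.943, 0.939 to 0.947).

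The 1 kb bins called for a side were removed from the 100 kb bins that held them. This left a ratio of 0.978 (0.974 to 0.982) on the Ring1b side and 0.808 (0.803 to 0.814) on the H4K20me3 side. Calls of the other side were left in, and 149 of these 100 kb bins held both. On the scale of the bins between the quartiles of outside reads these ratios were 1.13 and 0.936, so which of the surroundings was closer to even depends on the scale.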
